A study of Homo sapiens with 6 samples.

Results

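The genes described here encode the core of the adherens junction and the desmosome. They are CDH1, CTNNB1, CTNNA1, CTNND1, ARVCF, JUP, PKP2, PKP3, DSP and DSG2, and they make up 10 of the 20476 gene rows measured. They were listed by name as cadherin, catenin and desmosome genes, with earlier results of these data known. Each of the 10 was found by its Ensembl identifier and passed the filter on low counts. Transcripts were counted in SW620, a colorectal cancer line derived from a lymph node metastasis. The knockdown group (shECM1, 3 libraries) expressed a stable short hairpin RNA that targets ECM1, a secreted matrix glycoprotein, and the control group (shNC, 3 libraries) carried a negative control hairpin in the same line. No further treatment, time point or clone is named for either group. The series was set up to ask how ECM1 bears on the chemokine gene CCL20, and the junction genes were not its stated subject.

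Adherens junctions hold epithelial cells together through E-cadherin, whose extracellular domains pair between neighbouring cells. Its cytoplasmic tail binds beta-catenin or plakoglobin, which recruit alpha-catenin and through it actin, while p120-catenin and its relatives bind closer to the membrane and slow the removal of cadherin from the surface. Desmosomes use other cadherins, the desmogleins and desmocollins, which are tied by plakoglobin and the plakophilins to desmoplakin and so to keratin filaments. Beta-catenin is also the transcriptional effector of Wnt signalling, a pathway that most colorectal cancers activate through loss of APC.

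Total counts ran from 9881720 to 16813951 in shECM1 and from 11792872 to 14781799 in shNC. The table names its columns by a letter and a number, and these were matched to the sample titles by letter and number. If the letters stood for the other group, each direction below would turn round. ECM1 (ENSG00000143369) was at 14.8, 13.6 and 8.41 CPM (TMM-scaled counts relative to library size) in shECM1 replicates 1, 2 and 3, against 38.8, 19.0 and 52.3 CPM in shNC replicates 1, 2 and 3. ECM1 was thus lower in each library labelled shECM1, but edgeR did not call the difference (log2 fold change -1.58 ± 0.32 SE, adjusted p = 0.0973). The control library with the least ECM1, shNC replicate 2, stood apart from the other controls. Its log2 CPM over all tested genes correlated at a mean Pearson r of 0.990 with the shECM1 libraries and 0.980 with the other shNC libraries, a description across genes. The counts of calls below are therefore also given without it. It was singled out for its likeness to the knockdown libraries, and that choice in itself favours larger differences and more calls.

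The epithelial identity of the line was visible in the markers. EPCAM, an epithelial surface antigen, was at 483.5 to 538.0 CPM in shECM1 and 454.6 to 501.4 CPM in shNC. Summed over 10 colorectal epithelial markers, the level was 11195 to 12683 CPM in shECM1 and 11561 to 17015 CPM in shNC, most of it from KRT8, KRT18 and KRT19. The intestinal genes KRT20 (9 to 21 counts a library), LGALS4 (6 to 16) and CDX1 (0 to 1) were near 0. Summed levels of 10 fibroblast markers (17.3 to 21.6 CPM in shECM1, 24.5 to 36.2 in shNC), 8 immune markers (48.7 to 77.6 and 74.8 to 192.1) and 6 endothelial markers (8.04 to 9.22 and 9.73 to 12.2) were far smaller. Of these lists COL3A1, PDGFRA and FAP, PTPRC, CD3E and MS4A1, and KDR had 0 counts in every library. Others were counted. COL1A1 (7.21 to 9.73 CPM in shECM1, 13.1 to 21.6 CPM in shNC) and LUM (8.56 to 10.1 and 9.73 to 12.7 CPM) made up much of the fibroblast sum. The lysosomal gene CD68 (41.4 to 71.9 and 68.9 to 175.2 CPM) made up much of the immune sum. LYZ had 49 to 221 counts a library, VWF 58 to 128 and PECAM1 19 to 45. The fibroblast and endothelial sums were lower in each shECM1 library than in each shNC library. So were 3 of the 10 junction genes, against 13.2% of all tested genes. The part of these sums in the results below was not tested. In counts from pooled cells, fewer expressing cells and less RNA per cell cannot be told apart.

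Because ARVCF and JUP showed the largest differences among the 10 genes and DSP and DSG2 the only positive ones, the 250 bases before their RefSeq transcription starts are shown (GRCh38.p14). SNAI1 and ZEB1, repressors known to act on the CDH1 promoter, bind E-boxes of the form CAGGTG. Matches to CAGGTG on either strand (CACCTG on the strand printed) are in capitals, and the sequences run 5′ to 3′ on the strand of the gene. ARVCF lies on the minus strand at chr22:19987197-19987446, and the JUP windows on the minus strand at chr17:41785977-41786226 and chr17:41786712-41786961. DSP is on the plus strand at chr6:7541421-7541670 and DSG2 on the plus strand at chr18:31497927-31498176.
ARVCF: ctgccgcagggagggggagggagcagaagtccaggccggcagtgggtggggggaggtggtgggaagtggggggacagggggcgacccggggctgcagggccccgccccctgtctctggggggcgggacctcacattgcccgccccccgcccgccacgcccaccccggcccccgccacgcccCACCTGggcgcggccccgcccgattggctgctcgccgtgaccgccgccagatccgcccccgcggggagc
JUP, downstream start: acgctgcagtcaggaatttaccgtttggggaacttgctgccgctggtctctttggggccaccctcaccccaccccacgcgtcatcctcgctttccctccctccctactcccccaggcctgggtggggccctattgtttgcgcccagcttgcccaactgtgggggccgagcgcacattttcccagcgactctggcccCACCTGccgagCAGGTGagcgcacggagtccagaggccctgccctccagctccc
JUP, upstream start: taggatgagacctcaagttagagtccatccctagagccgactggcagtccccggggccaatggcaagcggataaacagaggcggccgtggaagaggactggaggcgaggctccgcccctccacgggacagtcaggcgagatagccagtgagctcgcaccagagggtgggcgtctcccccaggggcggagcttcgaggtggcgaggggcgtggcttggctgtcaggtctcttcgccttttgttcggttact
DSP: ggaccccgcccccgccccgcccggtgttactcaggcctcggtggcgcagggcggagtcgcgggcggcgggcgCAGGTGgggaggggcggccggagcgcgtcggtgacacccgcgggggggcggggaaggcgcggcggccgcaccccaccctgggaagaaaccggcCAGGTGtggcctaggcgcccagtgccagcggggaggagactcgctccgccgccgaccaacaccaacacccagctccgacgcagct
DSG2: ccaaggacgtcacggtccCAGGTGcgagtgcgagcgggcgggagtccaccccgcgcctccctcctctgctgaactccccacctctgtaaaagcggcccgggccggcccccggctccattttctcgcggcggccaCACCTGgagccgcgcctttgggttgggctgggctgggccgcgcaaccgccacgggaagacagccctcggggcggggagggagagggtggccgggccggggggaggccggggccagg
The ARVCF window held 1 match, 69 bases before the start, and the downstream JUP window held 2, at 54 and 43 bases. The upstream JUP window held 0. DSP had matches at 178 and 85 bases and DSG2 at 232 and 116 bases before the start, so the motif was present on both sides of the comparison. Of 35116 such windows in the RefSeq table, 17.5% held at least 1 match. Windows were found for 6 of the 10 genes (CTNNB1, CTNNA1, ARVCF, JUP, DSP and DSG2), and 4 of their 10 windows held a match. A match is a run of letters and was not measured as a binding site here.

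At an adjusted p under 0.05 in the quasi-likelihood test of edgeR, 0 of the 10 junction genes were called, as were 0 of the 12576 genes tested (0%). At an unadjusted p under 0.05, 5 of the 10 (CDH1, CTNNA1, ARVCF, JUP and PKP3) were lower in shECM1 and 0 were higher, where 22.5% of all tested genes passed (14.2% lower and 8.31% higher). Their median log2 fold change was -0.24, against 0.01 over all tested genes, and 8 of the 10 were negative, against 48.6% of all genes. In 3 of the 10 (CTNNB1, ARVCF and JUP), each shECM1 library lay below each shNC library, against 24.4% of all tested genes that did not overlap in either direction and 13.2% in that direction. DESeq2 called 2 of the 10, ARVCF and JUP, both lower, where it called 6.1% of genes (5.08% lower and 1.03% higher). With no count filter edgeR called the same 2, where it called 3.08% of genes (2.83% lower and 0.256% higher). Without shNC replicate 2, edgeR called 5 of the 10, CDH1, CTNNA1, ARVCF, JUP and PKP3, all lower, where it called 23.9% of genes (14.1% lower and 9.73% higher). DESeq2 without that library also called 5, where it called 20.9% of genes (12.5% lower and 8.41% higher).

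**Figure D1:**
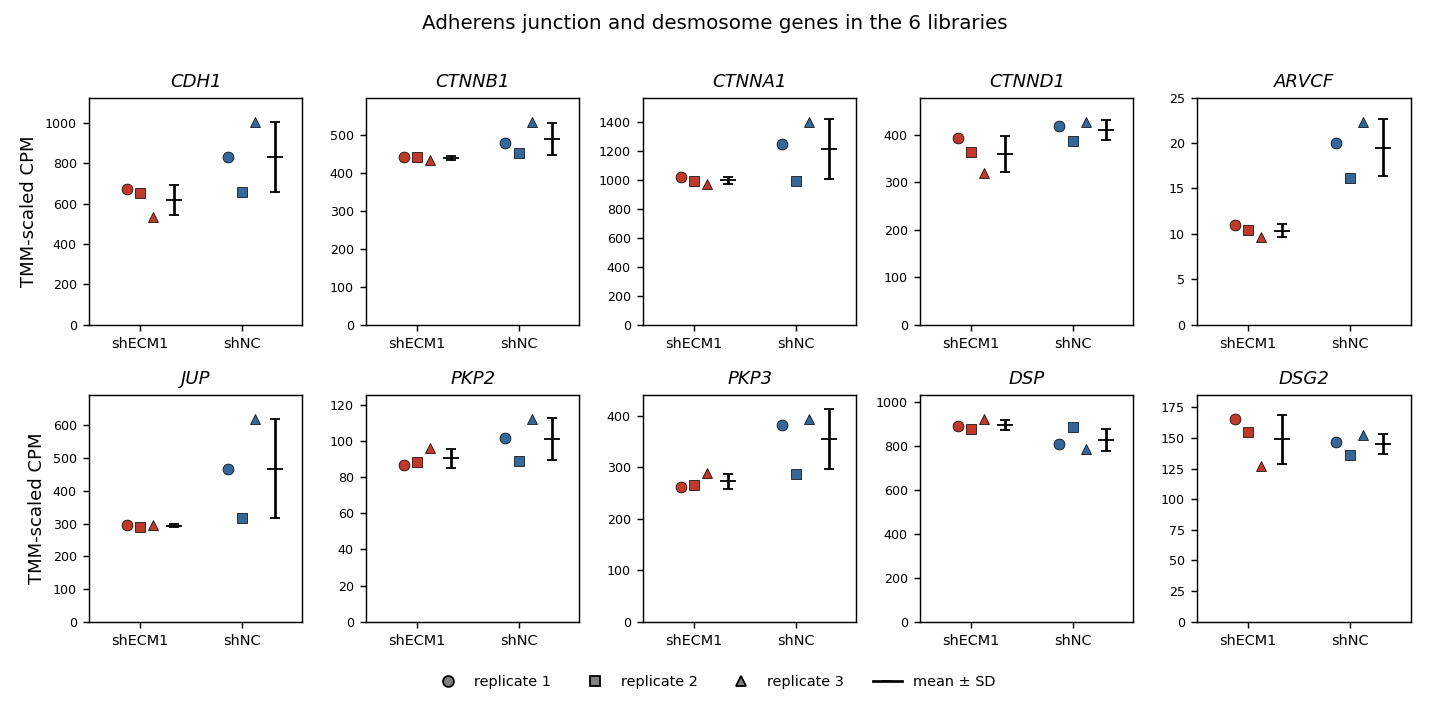
TMM-scaled CPM (vertical axes, each starting at 0) of the 10 genes in the 3 shECM1 libraries (red, left) and 3 shNC libraries (blue, right), with the symbol shape marking the replicate and the mean ± SD as a bar. The groups are apart for ARVCF, JUP and CTNNB1, and shNC replicate 2 (blue square) lies nearest to the shECM1 libraries for each gene except DSG2.

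CDH1 (ENSG00000039068, chromosome 16, 68737225 to 68835548 on the plus strand, GRCh38), the gene of E-cadherin, was at 670.5, 651.1 and 532.8 CPM in shECM1 and 830.7, 658.3 and 1004.9 CPM in shNC. The groups overlapped only through shNC replicate 2, which lay below shECM1 replicate 1. The mean was 618.1 ± 74.5 CPM in shECM1 and 831.3 ± 173 CPM in shNC (SD, n = 3 each), 25.6% lower in the knockdown. The log2 fold change of -0.43 ± 0.15 SE missed the threshold (edgeR adjusted p = 0.142). It stood at -0.56 once shNC replicate 2 was left out, which edgeR called (adjusted p = 0.0067), and at -0.27 once shNC replicate 3 was (edgeR adjusted p = 0.477). CDH1 rested on 6754 to 14038 counts a library.

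CTNNA1 (ENSG00000044115, chromosome 5), which encodes alpha-catenin, the link from the cadherin complex to actin, was at 1020.8, 995.9 and 973.4 CPM in shECM1. In shNC it was at 1252.1, 991.8 and 1401.3 CPM, so that replicate 2 of the controls lay inside the knockdown range while the other controls lay above it. At -0.29 ± 0.12 SE, the CTNNA1 log2 fold change missed the edgeR threshold (adjusted p = 0.204), and at -0.40 without that control it passed (edgeR adjusted p = 0.0104). CTNNB1 (ENSG00000168036, chromosome 3), the gene of beta-catenin, was at 440.7, 440.8 and 432.6 CPM in shECM1 against 478.5, 452.1 and 533.1 CPM in shNC. The groups did not overlap, yet the gap was small, with a log2 fold change of -0.16 ± 0.10 SE and a 95% interval of -0.37 to 0.06 (edgeR adjusted p = 0.361). Among the knockdown libraries CTNNB1 varied by 1.08% of its mean (SD over mean), less than any other gene of the 10.

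The p120 genes were unlike each other in level and in the size of the difference. CTNND1 (ENSG00000198561, chromosome 11), the gene of p120-catenin, was at 394.1, 365.3 and 320.2 CPM in shECM1 and 418.8, 386.8 and 427.7 CPM in shNC. The groups overlapped, with shECM1 replicate 1 above shNC replicate 2, and the log2 fold change was -0.19 ± 0.11 SE (edgeR adjusted p = 0.301). ARVCF (ENSG00000099889, chromosome 22, 19969896 to 20016808 on the minus strand), a less abundant p120 relative that also binds the juxtamembrane part of classical cadherins, was at 11.02, 10.4 and 9.66 CPM in shECM1. In shNC it was at 20.05, 16.2 and 22.3 CPM. The groups were far apart, and even shNC replicate 2 lay well above each knockdown library. The mean was 46.9% lower in shECM1, at 10.4 ± 0.683 against 19.5 ± 3.12 CPM (SD, n = 3 each).

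For ARVCF the log2 fold change was -0.91 ± 0.16 SE, the largest of the 10. Its edgeR adjusted p of 0.0973 was the smallest in the table, but many genes tied at it. ECM1, CDHR2, PTPRF and COL1A1 were among those tied. ARVCF passed in DESeq2 (adjusted p = 0.000837) and, in edgeR, when low counts were kept (adjusted p = 0.0139). With shNC replicate 2 left out its value was -1.02 (edgeR adjusted p = 0.000927), and with shNC replicate 3 left out -0.80 (edgeR adjusted p = 0.244). These levels came from 111 to 312 counts a library, the fewest of the 10 genes. Whether counting used strand is not given in the sources used here. The CTNND1 exons share 3.65% of their bases with the read-through gene TMX2-CTNND1 on the same strand, and CDH1 (5.62%), CTNNA1 (5.04% with LRRTM2) and DSG2 (2.76%) overlap genes on the other strand.

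Plakoglobin, encoded by JUP (ENSG00000173801, chromosome 17, 41754604 to 41786931 on the minus strand), is the catenin that both kinds of junction share. It was at 296.5, 289.7 and 294.8 CPM in shECM1, a tight group, against 465.2, 316.4 and 618.9 CPM in shNC. No library of the knockdown reached the lowest control, but the range from lowest to highest control was wider than the gap between the group means. The mean was 293.6 ± 3.54 CPM in shECM1 and 466.8 ± 151 CPM in shNC (SD, n = 3 each), 37.1% lower in the knockdown. For JUP the log2 fold change of -0.67 ± 0.19 SE missed the edgeR threshold (adjusted p = 0.108) but passed that of DESeq2 (adjusted p = 0.0149), and passed in edgeR when low counts were kept (adjusted p = 0.0324). Leaving out shNC replicate 2 gave -0.87, which edgeR called (adjusted p = 0.000483). Leaving out shNC replicate 3, the control with the most JUP, gave -0.41 (edgeR adjusted p = 0.352).

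The plakophilins, armadillo proteins that cluster desmosomal cadherins and bind desmoplakin, were both lower in mean level. PKP3 (ENSG00000184363, chromosome 11) was at 262.2, 264.6 and 289.4 CPM in shECM1 and 381.6, 286.7 and 392.9 CPM in shNC. The groups overlapped because shECM1 replicate 3 lay just above shNC replicate 2, and the log2 fold change was -0.38 ± 0.13 SE (edgeR adjusted p = 0.1302). With that control left out PKP3 stood at -0.50 and was called (edgeR adjusted p = 0.00346). PKP2 (ENSG00000057294, chromosome 12) was at 86.5, 88.6 and 96.2 CPM in shECM1 against 101.7, 89.0 and 112.1 CPM in shNC. Only shNC replicate 2 lay inside the knockdown range. Its log2 fold change of -0.16 ± 0.11 SE had a 95% interval of -0.41 to 0.09 (edgeR adjusted p = 0.419).

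Desmoplakin and desmoglein 2 had the 2 positive log2 fold changes, and neither passed the test. DSP (ENSG00000096696, chromosome 6), the gene of desmoplakin, which anchors keratin filaments, was at 892.0, 876.6 and 921.3 CPM in shECM1 and 808.2, 884.9 and 785.7 CPM in shNC. Again shNC replicate 2 lay inside the knockdown range, here above the other controls. The log2 fold change was 0.12 ± 0.09 SE, with a 95% interval of -0.09 to 0.32 (edgeR adjusted p = 0.468). DSG2 (ENSG00000046604, chromosome 18), the desmoglein of simple epithelia, was at 165.3, 155.1 and 126.7 CPM in shECM1 and 146.9, 136.2 and 152.3 CPM in shNC. The groups overlapped fully, and the 95% interval of the log2 fold change of 0.04 was -0.22 to 0.30 (edgeR adjusted p = 0.869). Without shECM1 replicate 1 its sign turned, to -0.03.

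**Figure D2:**
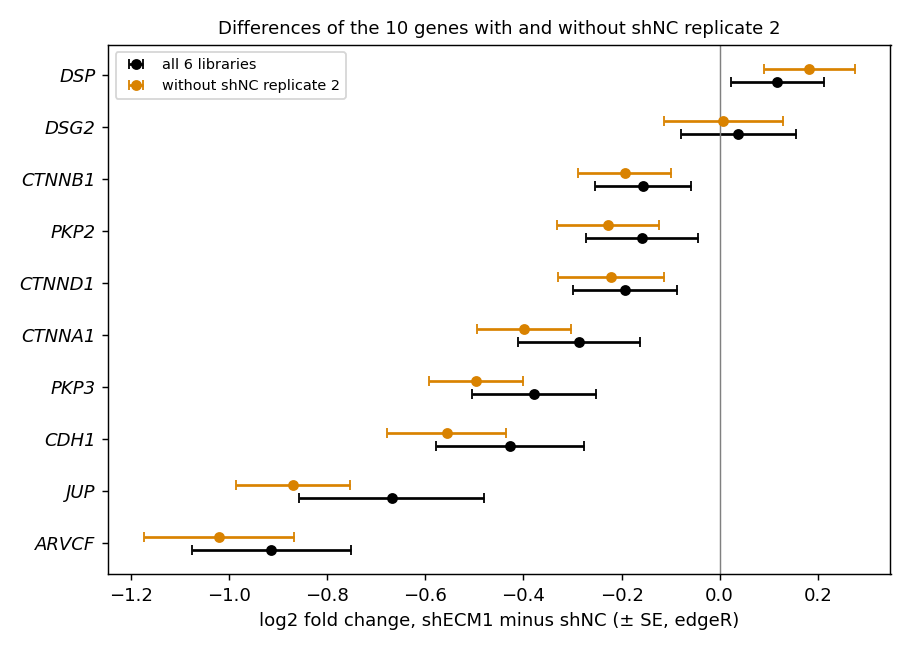
Log2 fold change of each gene, shECM1 minus shNC (horizontal axis, edgeR, bars are SE), from all 6 libraries (black) and without shNC replicate 2 (orange). ARVCF at -0.91 and JUP at -0.67 lie farthest below 0, DSP and DSG2 lie at 0.12 and 0.04, and without shNC replicate 2 the 8 negative values lie farther from 0.

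The control libraries kept a common order across these genes. In 9 of the 10, all but DSP, replicate 3 was highest, replicate 1 next and replicate 2 lowest among the shNC libraries, the order that ECM1 itself showed there, while 28.2% of all tested genes had it. In 9 of the 10, all but DSG2, shNC replicate 2 was the control nearest to the shECM1 mean, against 63.5% of all tested genes. These counts describe 3 libraries and were looked for after the values were seen. Within shECM1, replicate 3 was lowest for CDH1, CTNNB1, CTNNA1, CTNND1, ARVCF and DSG2 and highest for PKP2, PKP3 and DSP. Without that library the log2 fold change was -0.33 for CDH1, -0.11 for CTNND1 and 0.14 for DSG2.

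Levels were compared between genes per length, as CPM divided by the length in kb of the longest transcript in GENCODE 29. Alpha-catenin transcripts stood highest, at 260.2 ± 6.19 CPM per kb in shECM1 and 317.2 ± 54.1 in shNC for CTNNA1 (SD, n = 3 each), above the range of any other gene on this length. CDH1 followed, at 126.4 ± 15.2 and 170.0 ± 35.5 CPM per kb in shECM1 and shNC. Its 6-library range of 109.0 to 205.5 CPM per kb overlapped those of PKP3 and JUP. Below it the order was not settled beyond the spread of the libraries, since neighbours among PKP3 (93.3 to 139.9 CPM per kb over the 6 libraries), JUP (82.8 to 177.0), CTNNB1 (88.5 to 109.1) and DSP (80.2 to 94.1) overlapped. CTNND1 lay below them at 48.9 to 65.3 CPM per kb. DSG2 (21.7 to 28.4) and PKP2 (20.1 to 26.1) overlapped each other, and ARVCF was last at 2.57 ± 0.169 CPM per kb in shECM1 and 4.83 ± 0.772 in shNC. With the union of all annotated exons as the length, the lead of CTNNA1 over CDH1 was small, at means of 125.2 and 117.3 CPM per kb over the 6 libraries. On that length 5 of the 10 kept their place, and DSP moved to the third place and CTNNB1 to the seventh.

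Ratios of such per-length levels within a library do not depend on how libraries are scaled, and 7 were formed after the values were seen. The ratio of JUP to CTNNB1, the catenins that compete for the same site on E-cadherin, was 0.940, 0.919 and 0.953 in shECM1 and 1.36, 0.978 and 1.62 in shNC. The knockdown libraries lay close together and below each control, with shNC replicate 2 the nearest. Whether this ratio is above or below 1 depends on the length used, since with the union of exons the mean over the 6 libraries was 76.9 CPM per kb for JUP and 38.8 for CTNNB1. The ratio of JUP to DSP was 0.931, 0.926 and 0.896 in shECM1 and 1.61, 1.002 and 2.21 in shNC. ARVCF to CTNND1 stood at 0.0453, 0.0463 and 0.0489 in shECM1 and 0.0776, 0.0677 and 0.0847 in shNC. These 3 ratios, with PKP3 to PKP2 (4.57 to 4.64 in shECM1, 4.93 to 5.75 in shNC) and CDH1 to DSG2 (4.84 to 5.01 in shECM1, 5.77 to 7.87 in shNC), did not overlap between the groups. CTNNA1 to CTNNB1 (2.87 to 2.96 in shECM1, 2.80 to 3.35 in shNC) and CDH1 to CTNNB1 (1.23 to 1.52 in shECM1, 1.46 to 1.89 in shNC) did overlap. The ratios were picked with the values known and carry no test.

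**Figure D3:**
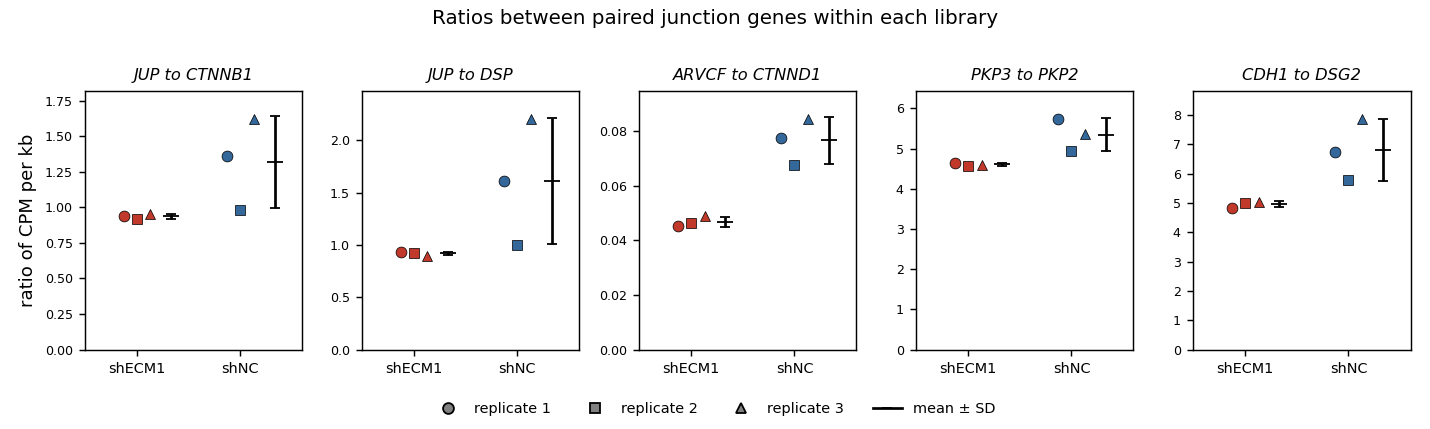
Ratio of per-length levels (CPM per kb, vertical axes starting at 0) between 5 pairs of junction genes within each library, with shECM1 (red) left of shNC (blue), the symbol shape marking the replicate and the mean ± SD as a bar. The shECM1 libraries lie close together in each panel, as for JUP to CTNNB1 at 0.919 to 0.953, and below each shNC library.

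Other genes of the same structures were followed in lists. Of 11 further desmosomal genes 5 were tested, 4 were negative with a median log2 fold change of -0.23, and 0 were called by edgeR. DESeq2 called 1 lower, where it called 5.08% of all genes lower. With shNC replicate 2 left out, edgeR called 2 lower, PPL and PERP, where it called 14.1% of all genes lower. PPL, the gene of periplakin, a plakin that binds keratin, was at 164.0, 165.5 and 169.4 CPM in shECM1 against 233.1, 187.7 and 249.6 CPM in shNC, and DESeq2 called it (log2 fold change -0.42, adjusted p = 0.032). PERP, a desmosomal membrane protein, had an edgeR log2 fold change of -0.23, and PKP1 one of -0.98 at 0.585 to 3.22 CPM. DSC2, the desmocollin partner of desmoglein 2, was at 8.63 to 10.8 CPM in shECM1 and 8.48 to 10.2 CPM in shNC, with a log2 fold change of 0.05. DSG1, DSG3, DSG4, DSC1 and DSC3, the isoforms of stratified epithelia, had between 0 and 9 counts in any library.

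Of 12 other cadherins 6 were tested, 4 were negative with a median log2 fold change of -0.34, and 0 were called by edgeR. DESeq2 called 1 lower, CDHR2, as did edgeR without shNC replicate 2. Over all genes these settings called 5.08% and 14.1% lower. CDHR2, a protocadherin of the brush border, was at 71.3, 65.2 and 68.1 CPM in shECM1 and 96.1, 101.6 and 96.0 CPM in shNC. Here shNC replicate 2 was the highest control and the groups were apart, and DESeq2 called the difference (log2 fold change -0.52, adjusted p = 0.00185). CDH17, the liver-intestine cadherin, was at 5.05 to 6.16 CPM in shECM1 and 7.28 to 8.02 CPM in shNC, with an edgeR log2 fold change of -0.42. CDH4 and CDH13 had log2 fold changes of 0.92 (at 0.423 to 2.38 CPM) and 0.14. CDH2, the N-cadherin gene, CDH6 and CDH11 had 0 counts in every library, which allows at most 0.179 to 0.298 CPM by counting error. A count near 0 in this table need not mean a silent gene, since CDC42, a GTPase gene that most cells transcribe, had 0 to 7 counts a library.

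Nectins, other catenins, actin linkers and phosphatases of the adherens junction had the lowest median of the 6 lists. Of 24 listed 19 were tested, 17 were negative, and 13 were lower and 0 higher at an unadjusted p under 0.05, beside the 14.2% of all genes that were lower at that level. The median log2 fold change was -0.40, with 0 called by edgeR, and 7 were called lower by DESeq2, which called 5.08% of all genes lower. Without shNC replicate 2, edgeR called 11 lower, where it called 14.1% of all genes lower. PTPRF, a receptor phosphatase at cadherin contacts, was at 120.5, 121.1 and 109.8 CPM in shECM1 and 182.6, 142.2 and 203.2 CPM in shNC (edgeR log2 fold change -0.59 ± 0.13 SE, adjusted p = 0.0973). The alpha-actinin genes ACTN4 and ACTN1, actin crosslinkers, were at 1060.4 ± 61.9 and 546.7 ± 17.9 CPM in shECM1, against 1524.2 ± 366 and 732.3 ± 142 CPM in shNC (SD, n = 3 each). CTNNAL1, an alpha-catenin relative, and PTPRK had log2 fold changes of 0.16 and 0.09.

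**Figure D4:**
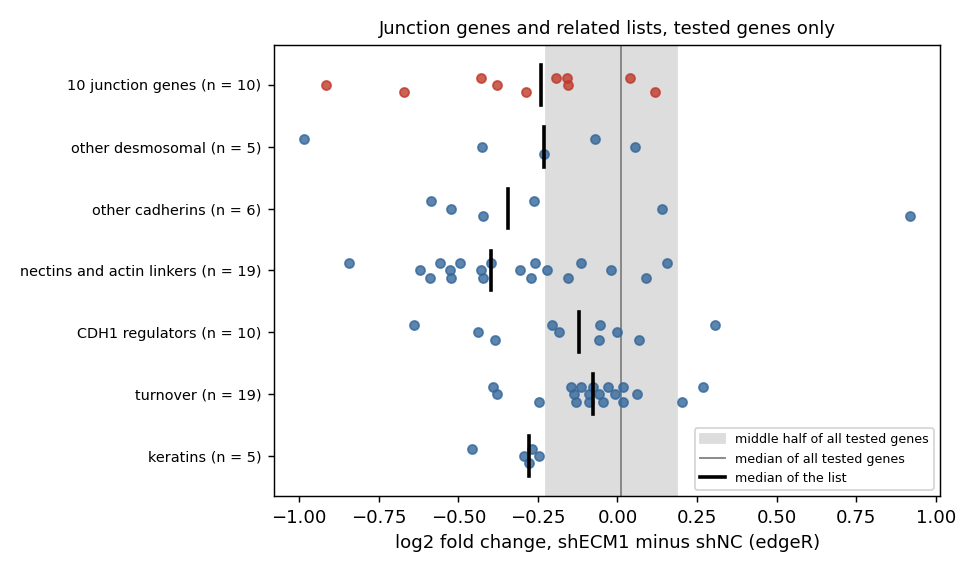
Log2 fold change, shECM1 minus shNC (horizontal axis, edgeR), of the 10 junction genes (red) and of the tested genes of 6 related lists (blue), with the list median as a black bar and the middle 50% of all 12576 tested genes as a grey band. The medians of the junction genes (-0.24), other desmosomal genes (-0.23), other cadherins (-0.34), nectins and actin linkers (-0.40) and keratins (-0.28) lie below the band, while those of CDH1 regulators (-0.12) and of turnover genes (-0.08) lie inside it.

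Regulators of E-cadherin and genes of its turnover had medians nearer to 0. Of 14 regulators and epithelial programme genes 10 were tested, 8 were negative, 0 were called by edgeR or DESeq2, and the median log2 fold change was -0.12. Without shNC replicate 2, edgeR called 2 of them lower, SNAI1 and HNF4A, where it called 14.1% of all genes lower. The repressor gene SNAI1 was at 4.77, 5.30 and 6.44 CPM in shECM1 and 8.71, 6.61 and 10.5 CPM in shNC (edgeR log2 fold change -0.64 ± 0.22 SE, adjusted p = 0.138). The SNAI1 groups did not overlap, with shNC replicate 2 just above shECM1 replicate 3. HNF4A, an intestinal and hepatic transcription factor, had a log2 fold change of -0.44, and CDX2, another intestinal factor, one of 0.31 with overlapping groups. The splicing factor genes ESRP1 and ESRP2 had log2 fold changes of -0.06 and 0.07, and the E-protein gene TCF3 one of -0.0012, whose sign changed with the scaling. ZEB1 and SNAI2 had 166 to 247 and 95 to 171 counts a library, with edgeR log2 fold changes of -0.06 and -0.21. TWIST1 had 0 counts in every library, ZEB2 at most 3 and GRHL2 at most 2.

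Of 20 turnover genes 19 were tested, 14 were negative with a median of -0.08, and 0 were called by edgeR or DESeq2. With shNC replicate 2 left out edgeR called ARF6 and CTNNBIP1 lower and APC higher. Over all genes that setting called 14.1% lower and 9.73% higher. ARF6, a GTPase in cadherin endocytosis, and CTNNBIP1, an inhibitor of beta-catenin binding to TCF factors, had edgeR log2 fold changes of -0.38 ± 0.14 and -0.39 ± 0.16 SE. APC, the scaffold of beta-catenin degradation, was at 46.7, 47.4 and 38.6 CPM in shECM1 and 35.1, 42.7 and 32.1 CPM in shNC (0.27 ± 0.14 SE, edgeR adjusted p = 0.275). CBLL1, the gene of Hakai, an E-cadherin ubiquitin ligase, had a log2 fold change of 0.20. AXIN2, a target of beta-catenin, and the kinase gene CSNK1A1 both had log2 fold changes of 0.02. All 5 keratins of simple epithelium that were listed were negative, with a median of -0.28 and 0 called by edgeR or DESeq2. In edgeR without shNC replicate 2, 4 of the 5 were called lower, all but KRT20, beside 14.1% of all genes. KRT19 was at 1545.6, 1571.7 and 1551.6 CPM in shECM1 and 2156.8, 1573.6 and 2682.8 CPM in shNC, so that shNC replicate 2 lay just above the knockdown libraries. KRT18 and KRT8, the main keratin pair of such cells, had log2 fold changes of -0.29 and -0.27.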

How the data were processed

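Raw counts were deposited for 20476 genes in 6 libraries, and 0 of the rows named no gene. The tools listed in the submitters' processing notes are STAR, fastp, Seurat, featureCounts and DESeq2, and the builds GRCh38 and hg38. The sources used here give no roles, versions or strand setting for them. The labels' protocols describe both total RNA and droplet single-cell libraries, the design text names single-cell sequencing, and the table holds no single cells. Nothing in the labels says that replicates were separate cultures, so p-values measure the spread between these libraries, which may be technical.

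Symbols were found for 20462 identifiers, and GENCODE release 29 (GRCh38) gave coordinates and lengths. Counts were tested in R 4.3.3 with edgeR 4.0.16 (filterByExpr, TMM scaling, glmQLFit and glmQLFTest, no covariate), with Benjamini-Hochberg adjustment over 12576 genes and a threshold of 0.05. CPM values are TMM-scaled, and each SE was taken from the log2 fold change and its F statistic (absolute value over root F). The procedure was run on simulated counts with the same spread setting for each gene and no control library resembling the knockdown. That run therefore does not measure power or error in these data. No pair of libraries agreed within counting noise (chi-square per gene of at least 3.31). Alternatives were other scalings and filters, DESeq2 1.42.0, limma-voom (limma 3.58.1), a replicate block and leaving out each library. The 10 genes and the lists were chosen with earlier results of these data known. From each list, the rule named the 2 genes of smallest p in each direction and the 2 of highest mean CPM; any gene beyond these was picked with its values known. Some results under this rule are not reported here. Beside 0 calls, 2827 genes had an unadjusted p under 0.05, DESeq2 called 713 and limma-voom 0.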

Additional observations from a re-analysis of the deposited data

How the results depend on the processing

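The count of called genes was 0 in edgeR under each scaling, the stricter count filter, limma-voom and the replicate block, 505 with no count filter, 713 in DESeq2 and 2680 in DESeq2 without shNC replicate 2. For the 10 junction genes the calls were 2 with no count filter, 2 in DESeq2 and 5 in DESeq2 without shNC replicate 2. Leaving out 1 library gave 0 to 3037 called genes, 0 to 5 called junction genes and 3 to 6 junction genes at an unadjusted p under 0.05. The highest counts came without shNC replicate 2, and the other 5 libraries each gave 0 calls. The cause of these differences was not tested.

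With the replicate block, edgeR called 0 genes and 0 of the 10. The labels do not say that the numbers pair the libraries, so they were not taken as pairs. Deviations of same-numbered libraries correlated at -0.07, -0.05 and -0.18 across genes. These values cannot settle pairing, since the deviations within a group are bound to its own mean. Median log2 fold changes of all genes were 0.01 to 0.04 under the 4 scalings.

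Leaving out 1 library turned the sign of some log2 fold changes near 0, with ranges of -0.0344 to 0.1433 for DSG2, -0.0338 to 0.1461 for DSC2, -0.0031 to 0.1718 for PTPRK, -0.0875 to 0.2106 for ESRP2, -0.0407 to 0.0999 for CSNK1A1 and -0.0809 to 0.0917 for AXIN2. CSNK1A1 was at -0.0478 in DESeq2 without shNC replicate 2. TCF3, at -0.0012, was at 0.0007 with RLE factors, 0.0037 with upper-quartile factors, 0.0251 with library size only, 0.0036 with no filter, 0.0031 in DESeq2, and -0.1835 to 0.0875 without 1 library. With the union of exons as gene length, 5 of the 10 genes kept their rank. Among the 10 genes counting error limits ARVCF most, at 111 counts in its lowest library, and PKP1 and CDH4, at 8 and 5 counts, are limited further.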
